A study of Mus musculus with 4 samples.

Results

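Macrophages of the olfactory mucosa were chosen by their C1q transcripts from 4 single-cell RNA libraries. A barcode was a member when C1qa, C1qb and C1qc summed to at least 6 UMIs, when Ptprc (CD45) or Csf1r was detected, and when Omp had at most 15 UMIs and Cyp2g1 at most 30. A UMI, or unique molecular identifier, marks 1 captured RNA molecule. Each barcode also had to show at least 500 detected genes and at most 10% of its UMIs in mitochondrial genes. These quality limits were passed by 39715 of 41911 barcodes, and 423 of the 39715 were members. The other 39292 passing barcodes were the background for every description. The source tissue was the main olfactory epithelium, taken at 3 months of age from C57BL/6J mice labelled wild type, with no treatment or sorting named. Females gave 2 libraries and males gave 2, called female 1, female 2, male 1 and male 2. Tissue was peeled from the bone, digested with papain and DNase and strained, and transcripts were counted from their 5′ end. Since each molecule is counted once whatever its length, levels of different genes were compared as CPM, a gene's UMIs scaled to a total of 1000000, with no length correction. The title of the series concerns neurexins and the targeting of olfactory axons. Nothing in the labels says whether libraries came from separate animals, so p-values measure the spread between these libraries.

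Macrophages are resident phagocytes of the myeloid lineage, and many depend on signalling through the CSF1 receptor. In the olfactory mucosa, where sensory neurons die and are replaced throughout life, they are known for clearing dead cells. C1qa, C1qb and C1qc encode the chains of C1q, the recognition molecule of the classical complement pathway, which also tags dying cells for uptake. Tissue macrophages vary in their display of antigen on MHC class II molecules, whose surface expression is used to tell macrophage subsets apart in many organs.

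The members made up 115 of 10220 passing barcodes in female 1 (1.13%), 107 of 9763 in female 2 (1.10%), 94 of 9663 in male 1 (0.973%) and 107 of 10069 in male 2 (1.06%). Exact binomial 95% intervals, which cover counting error only, ran from 0.787% to 1.35% over the 4 libraries and overlapped in every pair. The male mean was lower by a difference of -0.0929 percentage points. An exact two-sided permutation test gave p = 0.333, the smallest that such a design allows. Both male shares lay below both female shares, a difference that this test cannot call with 2 libraries a sex.

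Median depth of a macrophage was 6001, 5326, 5099 and 5771 UMIs in female 1, female 2, male 1 and male 2. Other passing barcodes of the same libraries had medians of 8694.5 to 9534 UMIs. Macrophages held a median of 55 to 72 C1q UMIs per library, far above the limit of 6. Only 11 of the 423 had 6 to 8 such UMIs, and 5 further barcodes with 3 to 5 met every other condition. Another 107 passing barcodes had at least 6 C1q UMIs but failed a different condition, and they stayed in the background. Of these, 50 had neither Ptprc nor Csf1r, 48 exceeded the Omp limit and 23 exceeded the Cyp2g1 limit, with some overlap. All 3 C1q transcripts were present in 416 members, Csf1r in 416 and Ptprc in 286. A C1q UMI was found in 1.01% of 20083 barcodes with the profile of olfactory neurons (median 9116 UMIs) and in 1.51% of 6240 with that of sustentacular cells (median 14093 UMIs). The T and NK cell set and the B lineage set had such a UMI in 0 of 84 and 0 of 47 barcodes.

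Total depth was 100725429 to 111577458 UMIs per library. Pairs of libraries shared 136 to 172 cell barcodes by sequence, and no macrophage was among them. No macrophage library was a copy of another. A chi-square statistic per gene between macrophage sums was 2.36 to 2.67 for pairs without male 1 and 4.85 to 5.45 for pairs with it. In male 1 a single barcode held 10036 of the 10918 UMIs of the airway secretory gene Bpifa1, and its part in that distance was not tested. RNA of other cell types was widespread at low level: the medians per macrophage were 4 UMIs of a mature neuron set, 3 of a sustentacular set and 2 of a secretory set. At least 10 UMIs of any other type's set were found in 82 macrophages. High doublet scores were given to 7, and these were kept. A set of 236 macrophages with at least 3000 UMIs and fewer than 10 UMIs of each other-type set, chosen after the data were seen, is called the cleaner set below.

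The C1q genes, which chose the members, lie side by side on chromosome 4. In GENCODE M21 (GRCm38) C1qb spans 136880129 to 136886187, C1qc 136889804 to 136893065 and C1qa 136895917 to 136898803, all on the minus strand. C1qb was at 5199, 5902, 4970 and 5498 CPM in the 4 libraries in the order above, against 4.23 to 6.12 CPM in the other barcodes. C1qa had 4305 to 5470 CPM and C1qc 3643 to 4299 CPM. All 3 were highest in female 2 and lowest in male 1. RefSeq promoter windows (GRCm38.p6) were at hand for C1qb and C1qc, and the 250 bases before each start are shown because both hold the core that PU.1 binds. PU.1, the product of Spi1, is a factor that macrophage identity depends on. Capitals mark that core, GAGGAA, or its reverse complement TTCCTC, searched on both strands, and bases run 5′ to 3′ on the strand of the gene.
C1qb, chr4:136886201-136886450, minus strand: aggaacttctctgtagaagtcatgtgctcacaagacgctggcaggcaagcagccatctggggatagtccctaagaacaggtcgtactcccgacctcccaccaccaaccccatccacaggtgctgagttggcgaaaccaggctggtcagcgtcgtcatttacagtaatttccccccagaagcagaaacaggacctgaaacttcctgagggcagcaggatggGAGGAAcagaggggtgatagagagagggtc
C1qc, chr4:136892915-136893164, minus strand: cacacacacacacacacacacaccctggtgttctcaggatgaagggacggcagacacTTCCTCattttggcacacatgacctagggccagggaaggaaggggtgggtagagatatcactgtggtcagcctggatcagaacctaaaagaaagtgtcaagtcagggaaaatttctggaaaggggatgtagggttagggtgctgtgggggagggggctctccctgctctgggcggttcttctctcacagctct
The match began 30 bases before the RefSeq start in C1qb and 193 bases before it in C1qc. GENCODE places the start of C1qc further upstream, at 136893065, so part of that window lies inside its GENCODE span. The same letters occur in 23.3% of 32851 RefSeq promoter windows of that length, so a match is a description and not a binding site. Spi1 itself was at 572 ± 49.2 CPM in macrophages (SD, n = 4) and 2.43 CPM in the other barcodes.

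The most abundant macrophage transcript was Apoe, which encodes the lipid carrier apolipoprotein E (chromosome 7, 19696109 to 19699188, minus strand). It stood at 33616, 39683, 38603 and 41812 CPM in female 1, female 2, male 1 and male 2, and at 223 to 388 CPM in other barcodes. Second was Cd74, the invariant chain that guides MHC class II molecules, at 18272 to 28137 CPM. The ferritin subunits Fth1 and Ftl1, which store iron, followed at 13072 and 8909 CPM. Next came the protease inhibitor Cst3 at 8098 CPM, H2-Aa at 7015 CPM and the lysozyme gene Lyz2 at 6997 CPM. Lipid transport, antigen display and iron storage supplied the leading transcripts of these cells.

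Among genes at 100 CPM or more in each library, the 25 with the greatest ratio over other barcodes were taken as the leading genes, with the C1q genes left out. The rule chose members on the same profiles, so these ratios describe the cells and were not tested. Ccl12, Ccl7, Ccl8 and Ccl2, chemokines that attract monocytes, stood 1378, 1249, 1122 and 810 times above the other barcodes. Spic, a factor of heme-handling macrophages, had a ratio of 1194, and the membrane protein gene Ms4a7 had 1180 at 1155 ± 111 CPM (SD, n = 4). Receptors were prominent: C3ar1 for the complement fragment C3a (ratio 1022), the lipid sensor Trem2 (799), the fractalkine receptor Cx3cr1 (781), the high-affinity IgG receptor Fcgr1 (769), the F4/80 gene Adgre1 (701) and the mannose receptor Mrc1 (662). Pf4, Ms4a4a, Fcrls, Ifi207, Slamf9, Wfdc17, the metal transporter Slc11a1, the protease Ctss, Ly86, Ccl4, Aif1 (IBA1), Tlr2 and the costimulator Cd86 completed the group. Some of the 25 were also high in barcodes with the profile of neutrophils. Ccl4 was at 2105 ± 2020 CPM there (SD, n = 4) against 3422 in macrophages, Wfdc17 at 316 against 894 and Tlr2 at 349 against 744. Others, such as Ccl12, Spic, Ms4a7, Trem2 and Mrc1, were at 0 CPM in those barcodes. Promoter windows were at hand for 20 of the 25, and 12 held the PU.1 core, beside the 23.3% of all windows given above.

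**Figure D1:**
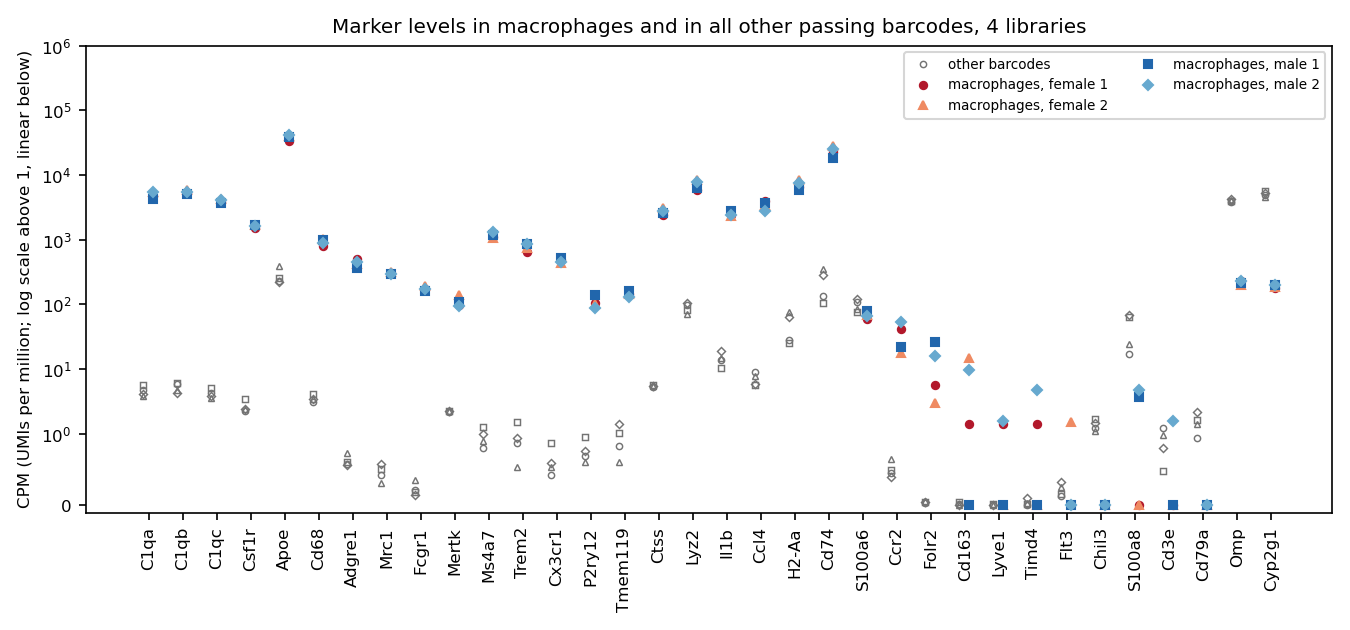
Levels of 34 marker genes (CPM, log scale above 1) in macrophages of each library, filled symbols, and in the other passing barcodes of the same library, open symbols. Macrophage markers lie far above the other barcodes in all 4 libraries, whereas Lyve1, Timd4, Flt3, Chil3, Cd3e and Cd79a lie near 0 in macrophages.

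By function, genes of digestion and IgG binding were higher than in other barcodes throughout, and uptake receptors in part. Higher CPM in 4 of 4 libraries was found for 24 of 24 lysosome genes and 7 of 7 Fc receptor genes. The same held for 15 of 21 genes of a phagocytic receptor list that includes the ligand Gas6. Over all 19760 genes detected the share was 13.1%, and among 1566 genes at 100 CPM or more in macrophages it was 60.1%. The cathepsins Ctsb, Ctsd and Ctss stood at 4534 ± 464, 4210 ± 253 and 2691 ± 309 CPM (SD, n = 4). The adaptor Tyrobp, through which TREM2 signals, was at 2985 ± 315 CPM. Of receptors for dying cells, Axl was at 297 ± 35.5 CPM and Mertk at 110 ± 20.7 CPM, while their ligand Gas6 was at 124 CPM against 64.2 CPM elsewhere. Timd4, another such receptor, had 4 UMIs in all, and Cd36 was lower than in other barcodes in 3 of 4 libraries. In the complement list 10 of 14 genes were higher in 4 of 4 libraries, with C3ar1 and C5ar1 at 755 and 236 CPM.

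Receptors for colony-stimulating factors were abundant. Csf1r, the receptor for CSF1 and IL-34, was at 1519, 1671, 1651 and 1620 CPM in the 4 libraries, and the libraries hardly differed. Csf2ra and Csf2rb, chains of the GM-CSF receptor, were at 305 and 129 CPM. The CSF1R ligands were scarce in the macrophages: Csf1 had 18.2 CPM and Il34 had 1 UMI. Of 17 transcription factor genes 16 were higher in 4 of 4 libraries, beside 13.1% of all genes detected. Cebpb was at 1349, Irf5 at 245 and Irf8 at 212 CPM.

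Inflammatory transcripts were abundant, and the labels name no treatment. Il1b, the precursor of interleukin 1 beta, was at 2361, 2295, 2776 and 2358 CPM in female 1, female 2, male 1 and male 2, against 10.3 to 18.5 CPM over all other barcodes. It was not particular to macrophages: barcodes with the profile of neutrophils had 4208 CPM of Il1b and 4446 CPM of Cxcl2. Ccl4 and Ccl3 were at 3422 and 1418 CPM, Cxcl2 at 1255 CPM and Tnf at 276 CPM. Il6 had 3 UMIs and Il10 had 6. In all, 16 of 18 chemokine genes and 15 of 20 cytokine and growth factor genes were higher in 4 of 4 libraries. Among all genes detected the share was 13.1%. Genes known to respond to tissue dissociation were abundant too. All 21 were at 100 CPM or more and 15 were higher in 4 of 4 libraries, near the 60.1% of all genes at that level, with Atf3 at 2388 CPM against 422 and Junb at 2683 CPM against 897, while Fos, Jun, Ier2 and Hsp90aa1 were lower in 4 of 4. The part of dissociation in the inflammatory levels was not tested.

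Lists of related cell types were mixed. Their counts stand beside 13.1% of all 19760 detected genes that were higher in 4 of 4 libraries. Of 14 monocyte genes 3 were higher in 4 of 4 libraries, Ccr2, Spn and Ms4a6c, and the list summed to 336 to 474 CPM against 108 to 151 CPM in other barcodes. Of 11 dendritic cell genes Fscn1, Batf3 and Wdfy4 were higher, and of 10 osteoclast genes Acp5, Dcstamp and Ocstamp. Several defining markers were at or near 0. Of the monocyte list, Chil3, Vcan and F10 had 0 UMIs, which allows at most 3 UMIs over all macrophages, and Ly6c2 had 16 UMIs, 15 of them in 1 cell. Of the dendritic cell list, Xcr1 had 0 UMIs and Flt3 had 1. Of the osteoclast list, Oscar, Calcr and Atp6v0d2 had 0 UMIs and Ctsk had 1, although Acp5 was at 169 CPM and Dcstamp at 79.1 CPM. Of 13 cell cycle genes 0 were higher and 8 were lower in 4 of 4 libraries. Cd3d, Cd79a, Ms4a1 and Retnlg, markers of T cells, B cells and neutrophils, also had 0 UMIs. Some members of those lists were nevertheless higher in 4 of 4 libraries: Cd4 at 87.7 CPM, Csf3r at 39.8 CPM and, of 8 B lineage genes, Ighm at 72.3 CPM and Cd79b at 14.7 CPM.

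Lists of 2 resident macrophage types were set beside each other. Of a LYVE1-type list, taken from vessel-associated macrophages, 10 of 17 genes were higher in 4 of 4 libraries, but Lyve1 had 2 UMIs, Cd163 had 17 and Folr2 had 30. Of a microglia-type list 11 of 13 were higher, and of all genes detected 13.1%. P2ry12, an ADP receptor, stood at 106, 99.5, 140 and 87.2 CPM and Tmem119 at 145, 141, 158 and 128 CPM in the 4 libraries. Sall1, a factor that defines microglia, was lower than in other barcodes in 4 of 4 libraries, at 2.90 CPM. Several transcripts used as microglia markers were present and Sall1 was not raised, so the cells were given no narrower name.

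Macrophages varied widely in MHC class II. The share of a macrophage's UMIs in H2-Aa, H2-Ab1, H2-Eb1 and Cd74 ran from 0 in 83 cells to 22.7% in 1 cell. It reached 1% in 48 of 115 macrophages of female 1 (41.7%), 56 of 107 of female 2 (52.3%), 34 of 94 of male 1 (36.2%) and 55 of 107 of male 2 (51.4%). The spread within a sex was larger than the difference between sexes, -3.25 percentage points male minus female (exact two-sided permutation p = 0.667). The sign of that difference turned to 2.05 without female 2 and to 4.36 without male 1. At least 5% was reached by 136 macrophages. The medians per library were 0.319%, 1.65%, 0.156% and 1.27%, so replicates of the same sex lay on both sides of 1%.

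**Figure D2:**
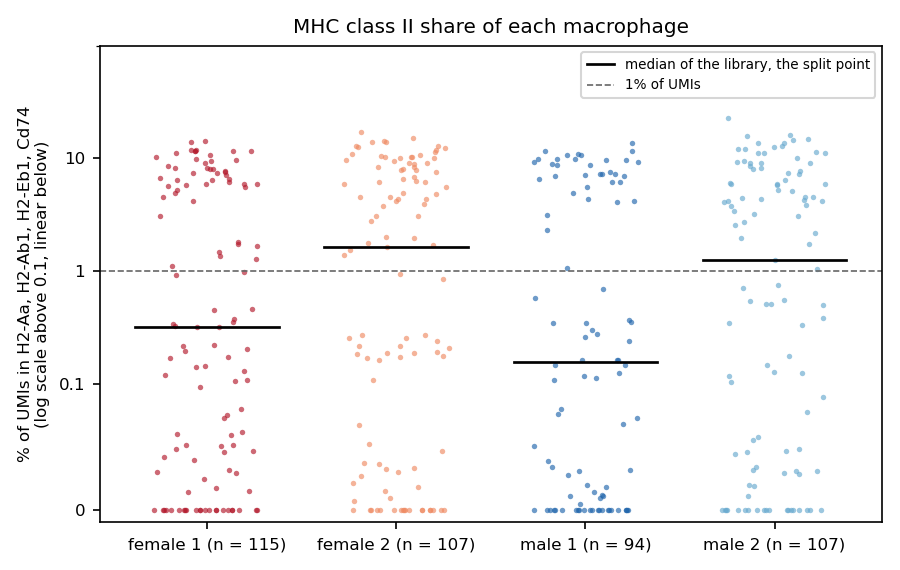
Share of UMIs in the 4 MHC class II genes for each of the 423 macrophages, by library (percent, log scale above 0.1), with the library median as a line and 1% as a dashed line. Every library holds macrophages from 0 to above 10%, and the medians of female 1 and male 1 lie below 1% whereas those of female 2 and male 2 lie above it.

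H2-Aa (chromosome 17, 34282744 to 34287823, minus strand) and H2-Eb1 (34305867 to 34316674, plus strand) encode an alpha and a beta chain of MHC class II. H2-Aa was at 6454, 8354, 5726 and 7526 CPM over the 4 libraries and H2-Eb1 at 6185, 8126, 5422 and 7323 CPM, and both genes were highest in female 2 and lowest in male 1. Their promoter windows are shown because both carry the Y box of class II promoters, CTGATTGG (capitals), which the factor NF-Y binds beside the complex that recruits CIITA.
H2-Aa, chr17:34287824-34288073, minus strand: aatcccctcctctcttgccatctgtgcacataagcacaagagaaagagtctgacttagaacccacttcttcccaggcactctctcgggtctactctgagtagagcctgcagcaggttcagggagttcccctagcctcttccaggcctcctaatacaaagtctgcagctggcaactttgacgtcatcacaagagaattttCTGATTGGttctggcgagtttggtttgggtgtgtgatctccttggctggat
H2-Eb1, chr17:34305617-34305866, plus strand: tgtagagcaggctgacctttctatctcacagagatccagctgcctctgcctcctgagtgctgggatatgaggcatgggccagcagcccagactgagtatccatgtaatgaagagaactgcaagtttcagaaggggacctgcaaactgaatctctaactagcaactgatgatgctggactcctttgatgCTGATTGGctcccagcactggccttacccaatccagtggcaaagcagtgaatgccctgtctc
The match began 51 bases before the start in H2-Aa and 62 bases before it in H2-Eb1. CTGATTGG or its reverse complement CCAATCAG occurs in 3.83% of all windows. Of 14 other antigen presentation genes with a window, 4 held it in at least 1 window: H2-D1, H2-Oa, Psmb9 and Tap1. That is a count of genes, whereas the 3.83% is a share of windows.

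To see what goes with MHC class II, macrophages of each library were divided at the library's median share into 210 MHC class II-rich and 213 MHC class II-poor cells. The 4 genes that made the groups were left out of the test. The groups are ranges of 1 measure, and whether they are separate cell types was not tested. Between 0.5% and 2% lay 31 macrophages, and 136 had at least 5%. The cut differed by library: rich cells began at 0.163% in male 1, while poor cells reached 1.65% in female 2. Counts were summed per library and group, and edgeR's quasi-likelihood test compared the sums with the library as a block. Of 5598 genes tested 602 (10.8%) differed at an adjusted p under 0.05, 376 higher (6.72%) and 226 lower (4.04%) in MHC class II-rich cells. Without scaling of library composition the calls were 288 higher and 275 lower, and the median of all genes moved from -0.03 to -0.11. The count was 373 without female 1 and 334 without male 2, of which 350 and 315 were shared with the 602. Rich cells were deeper than poor cells, with median depths of 6234 and 4286 UMIs. Cells with at least 10 UMIs of another type's set numbered 36 and 46.

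Genes that load, edit or control MHC class II rose with it. Of 15 antigen presentation genes tested 13 rose and none fell, with a median log2 fold change of 1.11 against -0.03 for all genes. H2-DMb1, a chain of the peptide editor H2-DM, had 638, 733, 526 and 831 TMM-scaled CPM in rich cells of the 4 libraries and 59.2, 64.5, 88.3 and 104 in poor cells, so the groups were far apart in each library. Its log2 fold change was 3.12 (SE 0.18, adjusted p = 6.01e-08). Ciita, the master activator of class II genes, had 65 UMIs in 44 rich cells and 0 in poor cells, which makes it at least 16.7-fold higher. Class I genes rose by less, H2-K1 by 0.79 and B2m by 0.64 on the log2 scale, and the call for B2m was lost without male 2 (adjusted p = 0.0522). Cd86 and Cd80, costimulators, did not pass, at 0.29 and 0.28, whereas the costimulator Cd40 rose by 2.43.

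The 12 largest increases among genes higher in rich cells of 4 of 4 libraries included several seen in few macrophages. Mmp12, the macrophage elastase (chromosome 9, 7344381 to 7369499, plus strand), had 556, 215, 559 and 59.8 TMM-scaled CPM in rich cells of the 4 libraries and 0 in all 4 poor groups. It came from 432 UMIs in 38 cells and was at least 111-fold higher. Ccr2, the receptor for the chemokine CCL2, had 88 UMIs in 30 rich cells and none in poor cells, at least 22.6-fold higher. Procr, the endothelial protein C receptor, and the protease Napsa were likewise confined in these sums to rich cells, in 32 and 28 cells, which makes Procr at least 20.5-fold and Napsa at least 19.5-fold higher. The CCR4 ligands Ccl17 and Ccl22 rested on very few cells: 134 of 220 Ccl17 UMIs came from 1 of 7 cells and 43 of 79 Ccl22 UMIs from 1 of 10 cells. The Ccl22 call was lost with DESeq2 (adjusted p = 0.112). H2-M2, Ass1, Mgl2, Il1r2 and Vegfa, with log2 fold changes between 4.65 and 5.82, made up the rest of these 12. The chemokine gene Cxcl9, singled out after its values were seen, stood outside that rule because male 1 had no UMI. It had 786 UMIs in 32 rich cells and 4 UMIs in poor cells, a log2 fold change of 7.22, and its call was lost with DESeq2 (adjusted p = 0.176).

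Among the list genes and the lowest p-values were others. Plbd1, a phospholipase B-like gene (chromosome 6), had 659, 830, 340 and 683 TMM-scaled CPM in rich cells and 41.8, 53.8, 22.1 and 33.3 in poor cells of the 4 libraries. No rich value came near a poor one, and its log2 fold change of 4.04 (SE 0.19, adjusted p = 3.88e-09) had the lowest p of all genes. Cd72 rose by 3.21, the galectin gene Lgals3 by 3.00, the integrin Itgax (CD11c) by 3.23 and Dcstamp, a cell fusion protein of osteoclasts and dendritic cells, by 4.49. Properdin (Cfp), C3 and factor B (Cfb) rose among 5 of 10 complement genes tested. The calls for C3 and Cfb were lost with DESeq2, at adjusted p = 0.114 and 0.247. Of 4 monocyte genes tested 3 rose, Ccr2, S100a4 and S100a6, while Chil3 and Vcan stayed at 0 UMIs in both groups. From the osteoclast list 2 of 3 genes tested rose, and from the dendritic cell list 1 of 2. Among all genes tested 6.72% rose.

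Several abundant genes were lower in MHC class II-rich cells. Slc40a1, the iron exporter ferroportin (chromosome 1, 45908068 to 45926523, minus strand), had 29.0, 3.12, 45.6 and 31.7 TMM-scaled CPM in rich cells and 296, 344, 388 and 307 in poor cells. The groups did not overlap, and it fell by 3.64 on the log2 scale (SE 0.29, adjusted p = 7.58e-07). Ctsd, the lysosomal protease cathepsin D, fell by 1.74 (SE 0.13, adjusted p = 5.59e-07), from 6756 to 7884 TMM-scaled CPM over the 4 poor groups to 1791 to 2909 in the rich ones. Apoe had 27925, 38356, 37893 and 35598 TMM-scaled CPM in rich cells and 47335, 51720, 52346 and 60233 in poor cells, a log2 fold change of -0.60. Apoc1, a smaller apolipoprotein, fell by 2.47. With cells divided at 1% its estimate was -1.41 and the call was lost (adjusted p = 0.155). Igf1, a growth factor, fell by 1.79 and Gpx3 by 1.74. The lists these genes come from did not move as a whole. Their counts stand beside 6.72% of all genes tested that rose and 4.04% that fell. Of 10 iron and heme genes Slc40a1 and Hmox1 fell and Fth1 rose by 0.90, and of 13 lipid handling genes Apoe and Trem2 fell while Lgals3 and Pltp rose, with a list median of 0.23.

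Of 12 microglia-type genes tested 8 fell and 1 rose, with a median of -0.87. Among all genes tested 4.04% fell and 6.72% rose. P2ry12 had 31.6, 59.3, 62.2 and 56.3 TMM-scaled CPM in rich cells of the 4 libraries and 223, 172, 269 and 144 in poor cells. It fell by 1.95 and Gpr34, a receptor for lysophosphatidylserine, by 1.96, although Gpr34 missed the threshold in cells thinned to 2000 UMIs (adjusted p = 0.0707). Trem2 fell by 0.91. Cx3cr1 fell by 0.48, but that call was lost without female 1, without female 2 or without male 2 (adjusted p = 0.125, 0.0808 and 0.0888). Tmem119 did not pass, at -0.24. The member that rose was Mgl2, a lectin that is not typical of microglia. Of 10 LYVE1-type genes 5 fell, Gas6, Ltc4s, Maf, Pf4 and Wwp1, and none rose. The call for Pf4 was lost without female 1 or without male 2 (adjusted p = 0.0816 and 0.0618).

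The phagocytic receptor list, which includes the ligand Gas6, divided. Counts in this and the following lists stand beside 6.72% of all genes tested that rose and 4.04% that fell. Mertk, Trem2, Stab1, Gas6 and Lrp1 fell, while Axl rose by 0.56 and Cd300lf by 1.84, out of 13 tested. Axl lost its call without female 1, without female 2 or without male 2 (adjusted p = 0.161, 0.0657 and 0.0718). Of 7 Fc receptor genes 4 rose, among them Fcgr4 by 3.39, and Fcrls fell by 1.83. In the lysosome list 6 of 23 fell and 2 rose, the sphingolipid activator precursor Psap by 0.72 and Ctss by 0.38. Il1b rose by 0.77, from 1490, 2126, 2066 and 2337 TMM-scaled CPM in poor cells to 3348, 2971, 4318 and 3016 in rich cells. Dissociation genes differed beside it: 6 of 21 rose and 2 fell, with Hspa1a up by 1.54 and Hspa1b by 1.73, and their part in the Il1b difference was not tested. Of 17 chemokine genes 7 rose, Ccl5, Ccl6, Ccl8, Ccl9, Ccl22, Cxcl9 and Cxcl16, and 2 fell, Cxcl10 and Pf4. The calls for Ccl5 and Ccl8 were lost with DESeq2, that for Ccl8 also without female 1 or male 2, and that for Cxcl10 without female 1 or female 2. Ccl2, Ccl3, Ccl4 and Ccl12 and the cytokine gene Tnf did not pass, with log2 fold changes between -0.47 and -0.04.

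**Figure D3:**
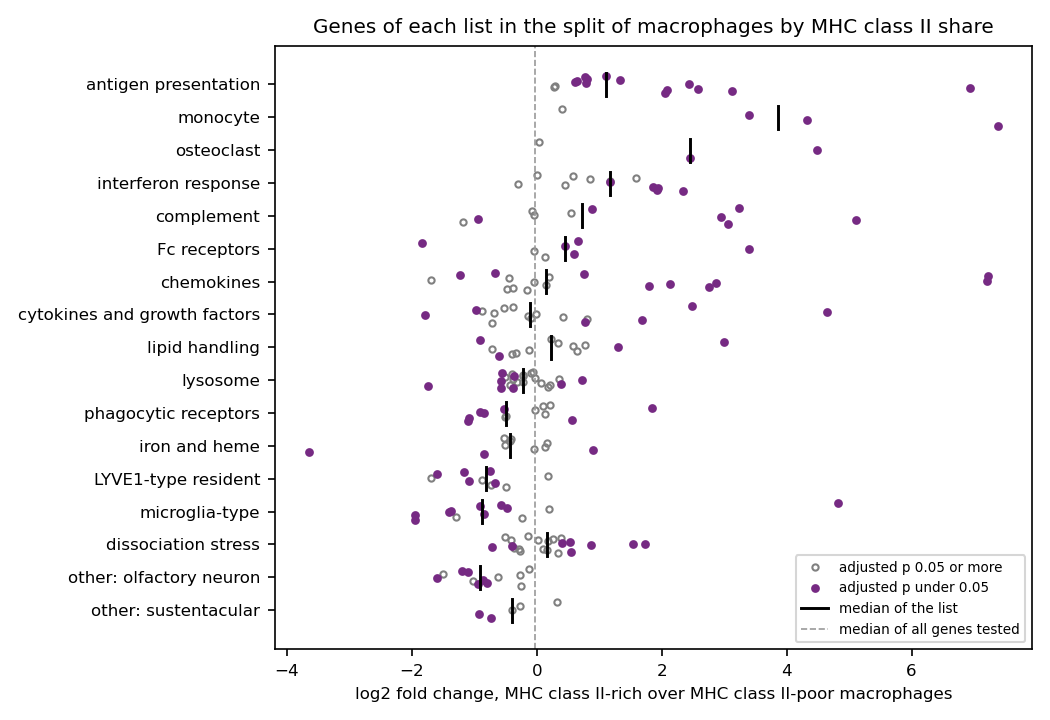
Log2 fold change of MHC class II-rich over MHC class II-poor macrophages (edgeR, 8 sums from 4 libraries) for the members of 17 gene lists, filled where the adjusted p is under 0.05, with the list medians as bars. Antigen presentation genes lie to the right (median 1.11) and microglia-type genes to the left (median -0.87), apart from Mgl2.

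RNA of other cells differed between rich and poor cells, and not in 1 direction. Of 12 olfactory neuron genes tested 6 fell, among them Adcy3 by 1.59 and Gng13 by 0.94, and of 5 sustentacular genes Cyp2g1 and Cyp2a5 fell. Among all genes tested 4.04% fell and 6.72% rose. Of 3 basal cell genes Krt5 and Krt17 rose, by 1.75 and 2.63, mostly from 1 rich cell in each male library. The highest cell held 48 of 49 rich Krt5 UMIs in male 1 and 29 of 31 in male 2. For Krt17 the highest cell held 40 of 41 in male 1 and 27 of 30 in male 2. The Krt17 call was lost with DESeq2, and its estimate was -0.39 with cells divided at 1%. Summed over the 12 neuron genes, rich cells had 1206 to 2051 CPM and poor cells 2401 to 3604 CPM in the 4 libraries. The sustentacular sum was lower in rich cells of 3 libraries but higher in those of female 1, at 1378 against 993 CPM. The remaining decreases among the 12 largest, Syngr1, Cldn7, Slc12a2 and Tubb2b, include genes known from neurons or epithelia. The call for Cldn7 was lost without female 2 or without male 1 (adjusted p = 0.0508 and 0.0565). In the cleaner set 430 of 4042 genes differed and 349 of them were shared with the 602. In it 10 of 14 antigen presentation genes rose, 8 of 11 microglia-type genes fell, and 1 of 7 Fc receptor genes rose instead of 4. None of 7 neuron and 3 sustentacular genes passed there, but the set was chosen for few UMIs of those types. The part of other cells' RNA in the call of any single gene was not tested.

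Sex was compared between the macrophage sums of 2 female and 2 male libraries. Of 7304 genes tested 4 passed (0.0548%). Males were higher in 3 (0.0411%) and lower in 1 (0.0137%), and an unadjusted p under 0.05 was found for 327. The count rested on which libraries entered: it was 17 without female 1, 14 without female 2, 34 without male 1 and 159 without male 2. Genes of the Y chromosome checked the labels: Ddx3y had 0, 0, 35 and 40 UMIs in female 1, female 2, male 1 and male 2, and Eif2s3y had 0, 0, 25 and 39. Neither gene had a UMI in a library labelled female. Uty, a Y gene, missed the threshold (log2 fold change 6.92, adjusted p = 0.353). The X genes that escape inactivation, Kdm6a, Eif2s3x, Kdm5c and Ddx3x, were each higher in both females than in both males and none passed. The same order was found for 17.0% of all genes tested. Of the 5 genes of the fixed X list 4 were in the matrices. Krt14, a keratin of basal epithelial cells, had 4, 2, 60 and 40 UMIs and was called higher in males, but 37 of the 40 UMIs in male 2 came from 1 cell and the 60 in male 1 from 2 cells.

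Irf7, the transcription factor that amplifies type I interferon, was lower in males. It had 107 and 136 TMM-scaled CPM in female 1 and female 2 and 23.6 and 29.8 in male 1 and male 2, so the sexes did not overlap. Its log2 fold change of -2.17 (SE 0.28, adjusted p = 0.0452) rested on 196 UMIs in 53 cells. The call was lost without composition scaling (adjusted p = 0.0628) and kept in the cleaner set (adjusted p = 0.00292). All 15 interferon response genes tested had negative estimates, with a median of -1.20 against -0.01 for all genes, and 1 of 15 passed. In 9 of 15 both females lay above both males, beside 17.0% of all genes. Female 2 was the highest library in most of the list. Isg15 had 82.5, 261, 27.5 and 62.8 TMM-scaled CPM and the antiviral gene Oasl2 had 38.5, 77.2, 13.8 and 19.8, and neither overlapped between the sexes. Without female 2 the Isg15 estimate was -0.83 instead of -1.88. Isg15 passed when female 1, male 1 or male 2 was left out (adjusted p = 0.00519, 0.0461 and 3.24e-09), and Oasl2 passed without female 1 or male 2 (adjusted p = 0.0451 and 0.00294). Interferon genes also rose with MHC class II in 5 of 12 tested, beside 6.72% of all genes, among them Isg15 by 2.33. Irf7 rose by 1.93, a call lost without female 1 or without female 2 (adjusted p = 0.0676 and 0.1). Female 2 also had the highest share of macrophages with 1% or more MHC class II, and the part of that share in the sex estimates was not tested.

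**Figure D4:**
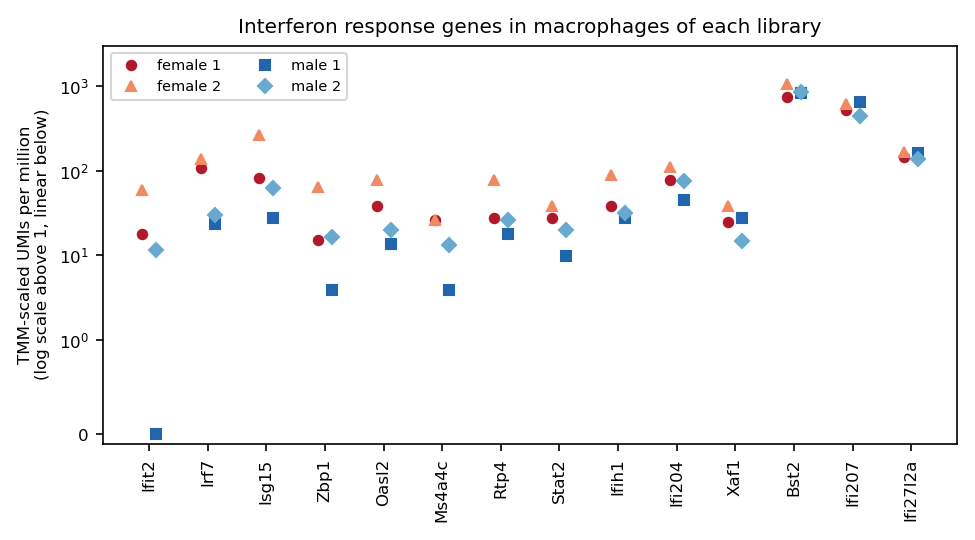
TMM-scaled CPM (log scale above 1) of 14 interferon response genes in the macrophage sum of each library, ordered by their sex estimate. Female 2 (triangles) is the highest library for most genes, and only Irf7 passed the test.

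In the other lists few genes passed by sex. None of 15 antigen presentation, 23 lysosome, 12 microglia-type or 17 chemokine genes passed. Of 11 LYVE1-type genes 7 were higher in both males than in both females, beside 16.9% of all genes, and none passed. Among them Pf4 had 278, 281, 410 and 436 CPM in the 4 libraries before scaling, with an estimate of 0.66. Several genes with large sex estimates did not pass either, such as Ccl5 at -2.67 and C3 at -2.48, in which female 2 again was highest. Both passed when female 1, male 1 or male 2 was left out, but not without female 2. In the cleaner set both passed (adjusted p = 0.00692 for Ccl5 and 0.00761 for C3). Of 11 complement genes both females lay above both males in 6, beside 17.0% of all genes. Both males lay above both females in 3 of the 11, beside 16.9% of all genes.

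Whether the MHC class II difference itself varied by sex was tested as an interaction. Of 5598 genes 1 passed (0.0179%), and 261 had an unadjusted p under 0.05. It was 1 of 50, 6, 8 and 43 that passed without female 1, female 2, male 1 and male 2. Cxcl10, a chemokine induced by interferon, had 105 and 488 TMM-scaled CPM in rich and poor cells of female 1 and 153 and 929 in those of female 2. In male 1 the values were 282 and 344, and in male 2 they were 394 and 367. Cxcl10 was lower in rich cells of both females and nearly level in both males, an interaction of 2.33 on the log2 scale (SE 0.31, adjusted p = 0.0116). The call was lost with DESeq2 and in the cleaner set (adjusted p = 0.238 and 0.990). The poor-cell values of the females rested on few cells. In female 1 the 140 poor-cell UMIs of Cxcl10 came from 13 cells, 59 of them from 1 cell. In female 2 the 259 came from 18 cells, 93 of them from 1 cell.

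A sex difference could also be shared by all cells of the tissue, so the interaction of sex with class set macrophages against the other passing barcodes. Of 16238 genes 48 passed (0.296%), 36 higher (0.222%) and 12 lower (0.0739%) for macrophages in males. The fit gave each gene 1 spread for both classes, although sums of 94 to 115 macrophages stood beside far larger sums of other barcodes. Macrophage sums may vary more than that shared spread, in which case these p-values are too small. Of the 48, 25 had UMIs in at most 20 macrophages and 19 had over 50% of their macrophage UMIs in 1 cell. Those of lowest p were Krt14, Igfbp2, Krt17, Krt5 and Bpifb1, with interactions of 3.17 to 8.32. Bpifb1 had 300 of its 306 macrophage UMIs in 1 cell. Basal cell genes as a group had 45.9 and 10.4 CPM in macrophages of female 1 and female 2 and 358 and 176 CPM in those of male 1 and male 2. Of the interferon genes Irf7 and Isg15 passed, with interactions of -1.81 and -1.61. Irf7 in other barcodes had 9.10, 12.2, 6.31 and 9.98 TMM-scaled CPM over the 4 libraries, and there female 1 lay below male 2. Their calls were not stable to leaving out single libraries: Irf7 was lost without female 1, female 2 or male 2 (adjusted p = 0.214, 0.979 and 0.0873) and Isg15 without male 1 (adjusted p = 0.0972) or without female 2, where its interaction was -0.74. Krt5 was lost without female 2 (adjusted p = 0.137), and Bpifb1 without female 2 or without male 1. The count itself was 23, 9, 23 and 132 without female 1, female 2, male 1 and male 2 in turn.

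**Figure D5:**
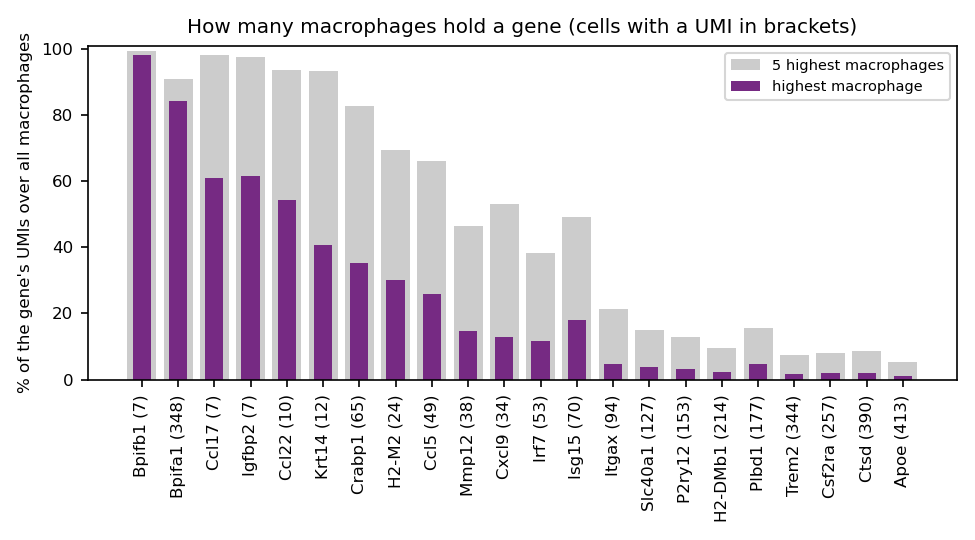
Share of a gene's UMIs held by the highest macrophage (dark) and by the 5 highest macrophages (light), out of all 423, with the number of macrophages that had a UMI in brackets. Bpifb1, Ccl17, Igfbp2 and Krt14 rest on few cells, whereas Apoe, Ctsd, Trem2 and Plbd1 are spread over many.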

How the data were processed

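Single-cell 5′ RNA libraries were deposited as UMI count matrices of barcodes by genes, which the authors made with Cell Ranger. The version is 6.0.2 per the file headers and 5.0.1 per the submitters' processing notes, which also name mm10. The gene annotation and the calling of cells are not given in the sources used here.

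The members and the gene lists were chosen with earlier results of these data known. Genes named are the 25 of largest ratio over other barcodes, up to 6 members per list by level, the sex calls, the 12 largest differences each way by MHC class II that held in 4 of 4 libraries, and the 5 interactions of lowest p. Others named in list counts were singled out after their values were seen. Raw counts were summed per library, as cells are not replicates. The main test was edgeR 4.0.16 quasi-likelihood (R 4.3.3) with its default count filter, TMM scaling of library composition and Benjamini-Hochberg adjustment over all genes tested at 0.05; every adjusted p comes from it unless DESeq2 1.42.0 is named. Sex was compared over 4 sums, and MHC class II over 8 sums with a library block. Interactions used the same sums. A fold over a group at 0 was computed against a floor of 3 counts over the group.

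Alternatives were another tool, no scaling, no filter, replicate blocks, leaving out each library, other C1q limits, doublets removed, thinning to 2000 UMIs, outer tertiles of MHC class II and, chosen after seeing the data, the cleaner set and division at 1%. Doublets were scored against 2 simulated doublets per barcode with 50 neighbours (Python 3.11.15, scikit-learn 1.9.0), and the scripts were tested on simulated data. Macrophage sums held 544055 to 719695 UMIs per library. Binomial intervals (exact Clopper-Pearson, 95%) and floors cover counting error only.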

Additional observations from a re-analysis of the deposited data

Results flagged for a closer look

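Values in which female and male libraries differed in an effect of the same contrast were these, each from edgeR's test of the interaction. For sex by MHC class II 1 gene passed, Cxcl10, at 2.33 on the log2 scale. For sex by class, macrophages against other barcodes, 48 genes passed in a fit with 1 spread per gene for both classes. The 5 of lowest p were Krt14 at 4.78, Igfbp2 at 5.26, Krt17 at 4.01, Krt5 at 3.17 and Bpifb1 at 8.32. Krt14, Krt17 and Krt5 encode keratins, and Krt14 had a UMI in 12 macrophages. Igfbp2 had 83 UMIs in 7 macrophages, 51 of them in 1 cell. The interferon genes Irf7 and Isg15 had interactions of -1.81 and -1.61.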

How the results depend on the processing

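Alternatives moved the counts of genes more than the direction of single genes: of the single values recomputed, 1210 kept direction and call, 124 lost a call, 29 gained one and 4 turned sign. The sex count of 4 was 0 without TMM scaling (328 genes at an unadjusted p under 0.05, and 6 by DESeq2), 89 without the count filter, 14 to 159 with 1 library left out, 8 without high doublet scores, 14 in the cleaner set and 0 in the 29 macrophages that carried almost no UMI of other cell types (29 of 568 genes at an unadjusted p under 0.05). The MHC class II count of 602 was 198 by DESeq2, all 198 among the 602, 334 to 485 with 1 library left out, 197 of 1891 genes after thinning to 2000 UMIs and 0 in those 29 macrophages (32 of 399 genes at an unadjusted p under 0.05). The count of 1 for sex by MHC class II was 0 by DESeq2, 18 without the filter, 6 to 50 with 1 library left out, 5 with at least 12 C1q UMIs, 2 without high doublet scores, 2 in the cleaner set, 0 in the 29 macrophages and 0 with cells divided at 1%. The count of 48 for sex by class was 7 by DESeq2, 5 without TMM scaling and 9 to 132 with 1 library left out. Fewer cells and genes enter after thinning and in the 29 macrophages; for the other settings the cause was not tested.

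Replicate numbers do not name shared animals, and deviations of same-numbered libraries correlated at -0.14 over 7219 genes. With the replicate block the counts were 9 for sex, 441 for MHC class II, all among the 602, 0 for sex by MHC class II (187 genes at an unadjusted p under 0.05) and 0 for sex by class (743 genes). The block took the sex call of Irf7 to an adjusted p of 0.0654, and the sex by class calls of Irf7 and Isg15 to 0.946 each. With the crossed replicate block they were 22, 564, 0 and 0.

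Values that turned sign were the MHC class II difference of Il1b, -0.20 in the 29 macrophages, that of Krt17, -0.39 with cells divided at 1%, and the sex difference in macrophages at 1% or more, 2.05 without female 2 and 4.36 without male 1, in a range of -10.9 to 4.36 with 1 library left out. The male minus female macrophage share stayed negative under every setting run, from -0.138 to -0.00447 percentage points. With 94 to 115 macrophages per library, genes of a few UMIs rest on single cells.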
